A study of Canis lupus familiaris with 7 samples.

Results

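Integrin chains and laminin chains were followed in RNAseq data from canine osteosarcoma (OSA) and bone. A gene was included when its symbol in the deposited expression table was that of an integrin alpha chain (*ITGA* with a number, or *ITGAD*, *ITGAE*, *ITGAL*, *ITGAM*, *ITGAV* or *ITGAX*), of an integrin beta chain (*ITGB* with 1 digit) or of a laminin chain (*LAMA*, *LAMB* or *LAMC* with 1 digit). Of the 24580 genes of the table, 36 met this rule: 24 integrin chains and 12 laminin chains. Another 2 beta chains, *ITGB3* and *ITGB4*, were not analysed here, since no row carried their symbol. The samples were from dogs, with 4 from grossly non-malignant bone next to a tumor (N1, N3, N8 and N9) and 3 from OSA tumor diagnosed by histopathology (T1, T3 and T10), each a small piece of tissue taken after amputation or euthanasia. Breed, sex, age, tumor site and earlier treatment of each dog are not given in the sources used here. The labels call the non-tumor tissue matched and adjacent but pair no samples, so whether samples with the same number (N1 and T1, N3 and T3) come from 1 dog is not given, nor whether the samples of a group came from separate dogs, and p-values measure only the spread between these samples.

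Integrins are cell surface receptors made of 1 alpha and 1 beta chain, which join the extracellular matrix or the surface of another cell to the cytoskeleton. The alpha chain largely sets what is bound. *ITGA1*, *ITGA2*, *ITGA10* and *ITGA11* encode the collagen receptors, *ITGA3*, *ITGA6* and *ITGA7* the laminin receptors, and *ITGA5*, *ITGA8*, *ITGAV* and *ITGA2B* the receptors of proteins with an arginine-glycine-aspartate (RGD) motif such as fibronectin and vitronectin. *ITGA4* and *ITGA9* chains bind fibronectin, VCAM1 and related ligands, and the *ITGAL*, *ITGAM*, *ITGAX*, *ITGAD* and *ITGAE* chains belong to leukocytes. Laminins are cross-shaped trimers of 1 alpha, 1 beta and 1 gamma chain and form the sheet of the basement membrane, which in bone tissue lies mainly around vessels, nerves, fat and muscle fibers. In bone, osteoclasts hold on to the mineral through the αv chain, and osteoblasts and their precursors carry β1 receptors for collagen and fibronectin.

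Values were FPKM, the number of fragments relative to transcript length and library size, a unit per length in which the chains can be set beside each other. The table holds no counts, and depth could be read from low values for T1 alone, where 1 FPKM stood for 0.937 times the fragments of N1 (a value shared by 187 of 1874 genes compared). In the other samples at most 27 genes shared a value, too few to set a depth. N1 stood apart from its group: over all tested genes its Spearman correlation with T1 was 0.924, against 0.581 to 0.653 with the other non-tumor samples and 0.562 to 0.796 in the other 20 pairs of samples. Whether N1 held tumor tissue or came from the same dog as T1 was not tested, and all non-tumor means and fold changes over 7 samples include it as labelled. Among the 26 chains with at least 1 FPKM in both N1 and T1, 23 were within a factor of 2 of each other. Of the 31 chains tested, 22 had an N1 value within the range of the tumor samples and 10 within the range of N3, N8 and N9. For chains in which N1 stood apart, fits without N1 or without both samples numbered 1 are therefore also given, the latter an alternative chosen after this likeness was seen. The labelled tissue was checked against markers that include none of the chains. The 8 osteoblast markers found summed to 89.4 FPKM in N8, 288 in N9, 979 in N3 and 15000 in N1, against 732 to 10160 in the tumors. The 12 skeletal muscle markers found summed to 92890 FPKM in N8 and 64120 in N9, against 1228 in N3, 81.4 in N1 and 6.15 to 16.0 in the tumors. *COL1A1* among the osteoblast markers was listed at 0 in T1 and *CKM* among the muscle markers in N9, and an exact 0 can be a failed estimate. The sum of 8 leukocyte markers was 1141 FPKM in N3 and 875 in N8, and 73.2 to 219 in the other samples. In bulk tissue, fewer cells of a type and less RNA per cell cannot be told apart.

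The chains with the highest level differed between samples. *ITGB5* led in N1 and T1, *ITGA7* in N9 and *ITGB1* in N3, N8, T3 and T10. N1 and T1 had the same 5 highest chains in the same order, namely *ITGB5*, *ITGB1*, *ITGAV*, *LAMB2* and *LAMA4*. In N3 *ITGB1* was followed by *ITGB2*, *ITGA4*, *ITGB5* and *ITGAM*, of which all but *ITGB5* are typical of leukocytes. The FPKM of the 36 chains summed to between 553 (N8) and 812 (N1) in non-tumor samples and to 764, 1216 and 1536 in T3, T1 and T10, so that the groups overlapped. In T10 the 5 highest chains held 88.0% of this sum, and in N3 53.0%. Of 252 values, 7 were listed at 0, in *ITGB6*, *LAMB4* and *ITGAD*.

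**Figure D1:**
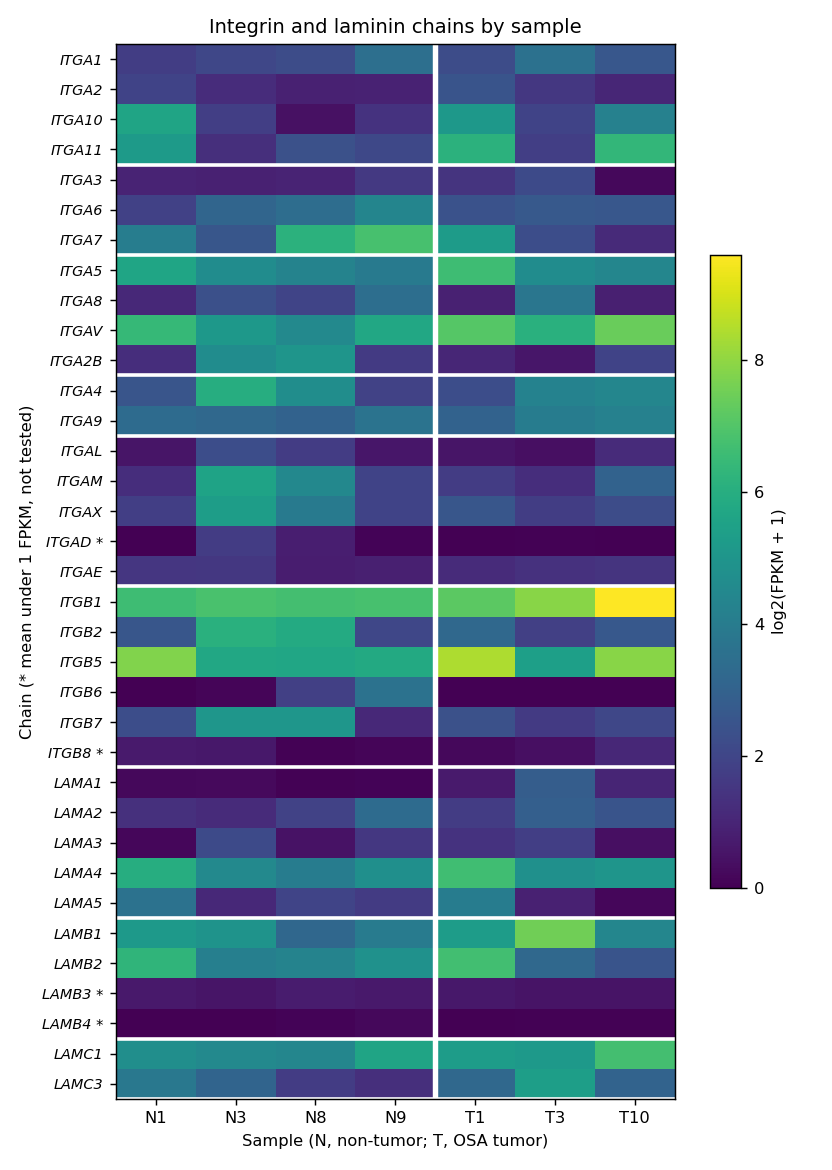
Level of 35 of the 36 chains (rows, grouped by role) in the 7 samples (columns), as color on the scale log2(FPKM + 1); chains with an asterisk had a mean under 1 FPKM and were not tested. N1 and T1 resemble each other, N3 and N8 are high in *ITGB2*, *ITGAM* and *ITGAX*, and *ITGB1* reaches its highest value, 768 FPKM, in T10.

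OSA tumor was compared with non-tumor bone to ask which chains differ in level. Of the 31 chains with a mean of at least 1 FPKM, 2 were called higher in tumor, *ITGB1* and *ITGAV*, and 0 lower; a call needed a log2 fold change of 1 or more in size on the log2(FPKM + 1) scale and an unadjusted limma p below 0.05. That is 6.45% of the chains tested for higher, where 3.28% of all 13507 tested genes passed as higher and 3.58% as lower. With the sample number as a fixed block, *ITGB1* and *ITGAV* lost their calls. With it as a random block, *LAMA1* passed as higher and *ITGA2B* as lower. Of the pathway genes described below, *PXN* and *SGCA* lost their calls in both block fits, and *MFGE8*, an integrin ligand, passed as higher in both. The values are given with the processing alternatives. A share of 3.28% over 31 chains would be about 1 chain. After adjustment 0 genes remained under 0.05, the smallest adjusted p being 0.693, while 927 genes (6.86%), 2 of them chains, were under 0.05 before adjustment. The tumor values lay above every non-tumor value in 2 chains, *ITGB1* and *LAMA1*, and below in 0, where 3.04% and 2.81% of all tested genes did so. *LAMA1* reached the filter only through its tumor values, with a mean of 1.17 FPKM over all samples and 0.107 FPKM over non-tumor samples. Its place in this count is therefore a description only. Of the tested chains, 18 had a log2 fold change above 0, with a median of 0.16, beside -0.02 over all tested genes, of which 6561 were above 0. The median was 0.00 over the 22 tested integrin chains (11 above 0) and 0.67 over the 9 tested laminin chains (7 above 0). Without N1, 4 chains passed as higher (*ITGA10*, *ITGA11*, *ITGAV* and *LAMC3*) and 1 as lower (*ITGA2B*), beside 6.31% and 8.48% of all tested genes. Without both samples numbered 1, 3 passed as higher (*ITGAV*, *ITGB1* and *LAMA1*) and 2 as lower (*ITGA7* and *LAMB2*), beside 6.72% and 7.3% of all tested genes. With the samples weighted by their spread (arrayWeights of limma), 3 passed as higher and 2 as lower, beside 6.12% and 7.63% of all tested genes, and with FPKM rescaled to a common sum 0 and 0, beside 2.01% and 3.65%. With N3 left out 0 passed as higher and 1 as lower (2.39% and 4.15% of all tested genes), with N8 left out 0 and 0 (1.38% and 0.977%), with N9 left out 1 and 3 (2.07% and 3.02%), with T1 left out 2 and 2 (4.53% and 4.46%), with T3 left out 3 and 0 (3.07% and 1.4%) and with T10 left out 2 and 0 (2.21% and 0.933%).

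**Figure D2:**
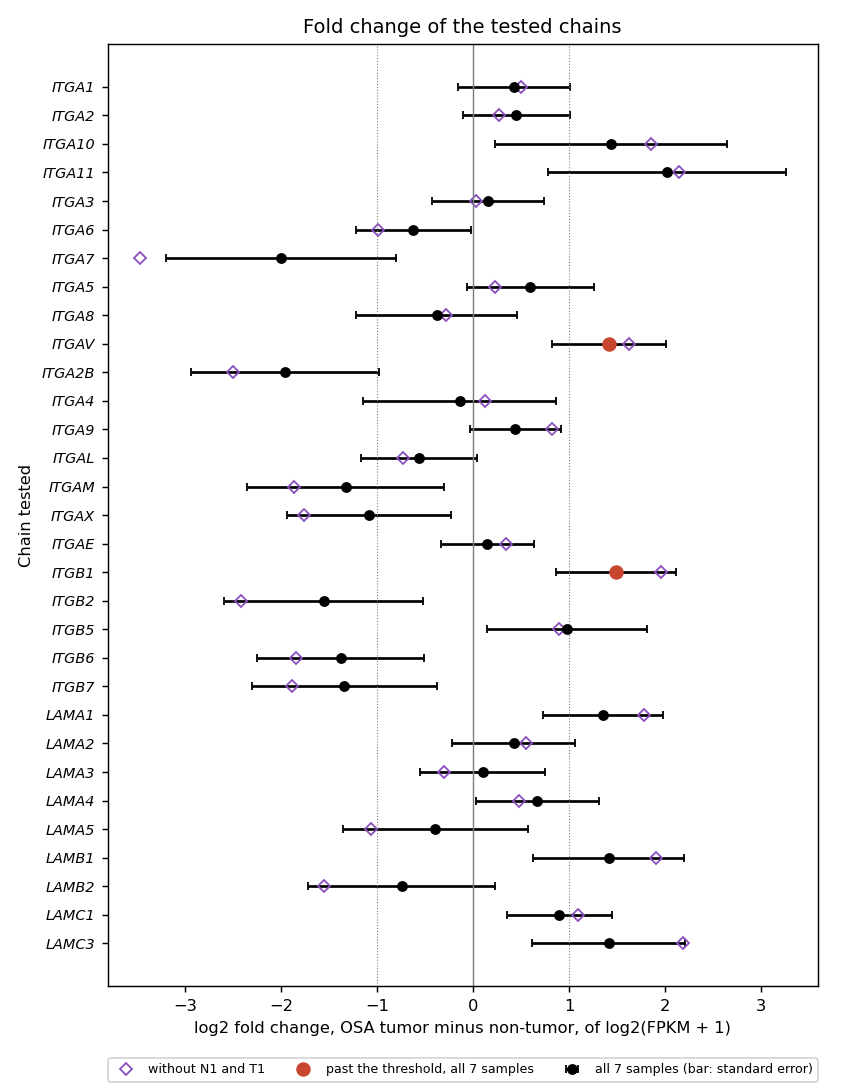
Log2 fold change of each tested chain, tumor minus non-tumor, on the scale log2(FPKM + 1), with bars of 1 standard error over all 7 samples and open diamonds for the fit without N1 and T1; dotted lines mark a log2 fold change of -1 and 1. The red points, *ITGAV* at 1.42 and *ITGB1* at 1.49, are the chains past the threshold, and *ITGA7* moves furthest when N1 and T1 are left out, to -3.47.

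The β1 chain, the shared partner of 12 alpha chains, was called higher in tumor before adjustment. *ITGB1* (ENSCAFG00000003821, CanFam3.1 chromosome 2 from 3728545 to 3759496) was at 95.8, 113, 104 and 109 FPKM in N1, N3, N8 and N9, a spread of 7.28 (SD) around a mean of 105. In T1, T3 and T10 it was at 145, 236 and 768 FPKM. All 3 tumors lay above all 4 non-tumor samples, and T10 alone held 66.9% of the tumor sum. By limma its log2 fold change was 1.49 (standard error 0.62), with an unadjusted p of 0.0398 and an adjusted p of 0.693. A two-sided exact permutation test gave p = 0.0571, the smallest p that 4 against 3 samples allow. The fold change passed in 1 of the 7 fits that left out a sample, the fit without T1 (2.01). Without T10 it was 0.81, the lowest of these fits, and without N1, N3, N8, N9 or T3 it was 1.44 to 1.66, with the unadjusted p between 0.0517 and 0.0706.

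The β5 chain pairs with αv in a vitronectin receptor. *ITGB5* on chromosome 33 (27796831 to 27912641) stood at 218 FPKM in N1 and at 52.1, 49.8 and 55.8 FPKM in N3, N8 and N9. The tumors were at 341, 41.2 and 233 FPKM in T1, T3 and T10. The level in N1 was within the range of the tumors, and T3 lay below every non-tumor sample. The difference (log2 fold change 0.98, standard error 0.83, adjusted p = 0.789 by limma) did not pass, and passed only where T3 was left out (1.89). Without T1 it was 0.38. Without N1 it was 1.49 and without both samples numbered 1 it was 0.89, and neither passed. Relative to the sum of the 6 beta chains measured, *ITGB5* held 67.5% in N1 and 68.4% in T1, and 14.6% to 31.0% in the other 5 samples.

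*ITGAV*, the αv chain of osteoclasts, fibroblasts and many tumor cells, was the alpha chain that passed the threshold. The gene (ENSCAFG00000014597, chromosome 36 from 28815197 to 28890642) was at 83.9, 33.4, 21.9 and 53.3 FPKM in N1, N3, N8 and N9 and at 134, 67.7 and 169 FPKM in T1, T3 and T10. T1 and T10 lay above every non-tumor sample, while T3 lay below N1. Its log2 fold change of 1.42 (standard error 0.59) had an unadjusted p of 0.0394 and an adjusted p of 0.693 by limma, and the exact permutation test gave p = 0.114. It passed in 3 of the 7 fits with a sample left out, those without N1 (1.74), N9 (1.52) and T3 (1.80), and not in those without N3 (1.30), N8 (1.10), T1 (1.31) or T10 (1.14). The osteoclast markers, 6 of 7 found, summed to 1614, 586, 182 and 353 FPKM in N1, N3, N8 and N9 and to 3369, 458 and 511 FPKM in T1, T3 and T10. T10, with the highest *ITGAV*, had a lower osteoclast sum than N1 and N3, but single markers differed. *CTSK* was at 498 FPKM in T10 and 431 FPKM in N3, and *ACP5* at 11.0 FPKM in T10 and 140 FPKM in N3. The part of these cells in the *ITGAV* difference was not tested.

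Once the FPKM of each sample had been scaled to a common sum, neither chain passed. *ITGB1* was then at a log2 fold change of 1.69 with an unadjusted p of 0.0728, and *ITGAV* at 1.60 with an unadjusted p of 0.0802 (limma). This scaling moved the median of all tested genes by 0.15 on the log2 scale, and relative to the shifted median the fold changes were 1.56 and 1.48. With the sample number as a fixed block over N1, N3, T1 and T3, *ITGB1* and *ITGAV* did not pass either.

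**Figure D3:**
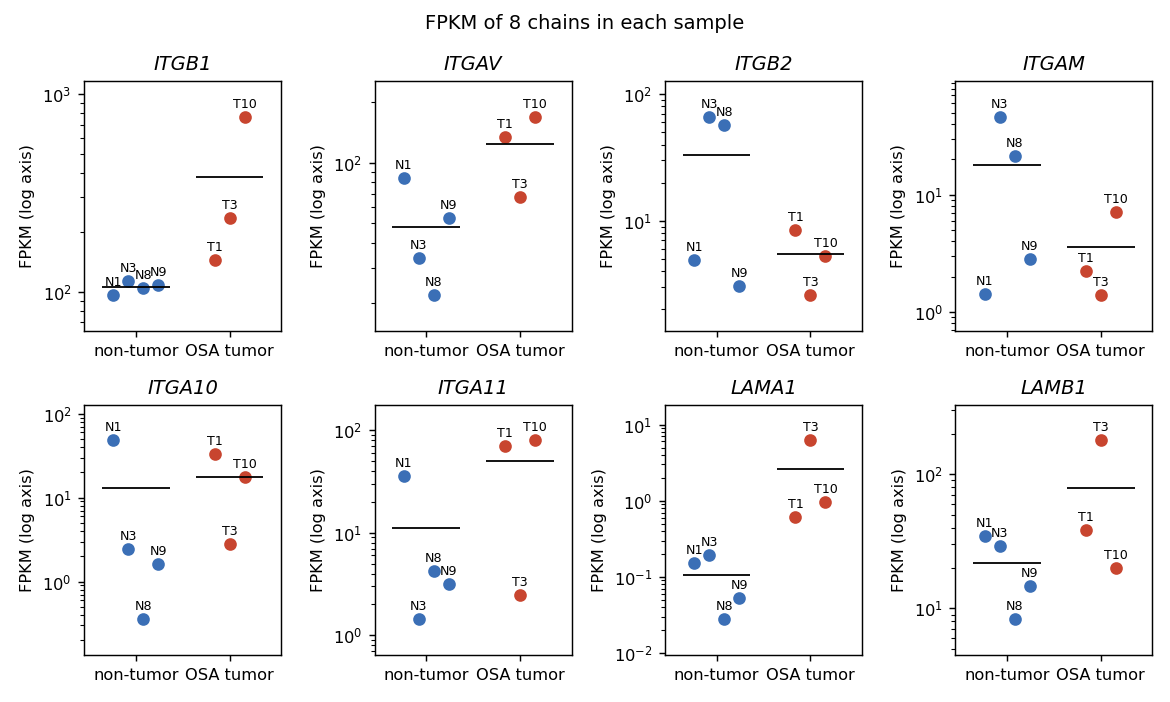
FPKM of 8 chains in each non-tumor (blue) and OSA tumor (red) sample, on log axes, with a line at the mean of each group. The 3 tumors lie above all non-tumor samples for *ITGB1* and *LAMA1*; for *ITGAV* T3 falls below N1, and for *ITGB2* and *ITGAM* only N3 and N8 are apart from the rest.

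Of the other RGD-binding chains, *ITGA5*, the alpha chain of the classical fibronectin receptor, was at 48.3, 24.4, 18.3 and 14.5 FPKM in N1, N3, N8 and N9 and at 97.1, 24.1 and 20.3 FPKM in T1, T3 and T10. Only T1 stood above the non-tumor range, and the log2 fold change of 0.60 (standard error 0.66, adjusted p = 0.834 by limma) became -0.10 without T1, 0.93 without N1 and 0.23 without both. *ITGA8*, which binds nephronectin and fibronectin, was at 1.13, 4.10, 2.87 and 9.95 FPKM in N1, N3, N8 and N9 and at 0.843, 12.5 and 0.808 FPKM in T1, T3 and T10. T3 and N9 were highest, and the groups overlapped (log2 fold change -0.38, standard error 0.84, adjusted p = 0.931 by limma), with the sign turning to 0.03 without N9. *ITGA2B*, the alpha chain of the platelet fibrinogen receptor, was at 24.3 FPKM in N3 and 30.7 FPKM in N8, at 1.40 and 2.06 FPKM in N1 and N9, and at 1.02, 0.492 and 2.78 FPKM in T1, T3 and T10. Its log2 fold change was -1.96 (standard error 0.98, adjusted p = 0.693 by limma), which did not pass with all samples weighted alike. It passed without N1 (-2.58), without N9 (-2.47) and with sample weights (-2.66), and was -1.45 without N3 and -1.34 without N8. Megakaryocyte and platelet markers, 6 of 8 found, summed to 74.5 and 139 FPKM in N3 and N8, to 12.4 and 51.4 in N1 and N9, and to at most 47.3 in the tumors. *GP9* among them was at 10.8 and 56.8 FPKM in N3 and N8 and under 1 FPKM elsewhere. *TUBB1*, the tubulin of platelets, was instead highest in N9 (45.8 FPKM), and *PPBP*, a platelet chemokine, was at 36.6 and 40.02 FPKM in N3 and N8 but also at 25.4 FPKM in T10. The part of these cells in the *ITGA2B* values was not tested.

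All 4 collagen-binding alpha chains had a log2 fold change above 0, with a median of 0.94, and none of them passed. *ITGA11* (chromosome 30 from 32322198 to 32405661), the collagen receptor chain of mesenchymal cells and fibroblasts, was at 36.0 FPKM in N1 and at 1.43, 4.26 and 3.18 FPKM in N3, N8 and N9. T1 and T10 were at 70.1 and 79.6 FPKM, but T3 was at 2.46 FPKM, within the range of N3, N8 and N9. Over all samples the log2 fold change was 2.02 (standard error 1.24, adjusted p = 0.712 by limma). Leaving out N1 brought it to 2.85 and leaving out T3 to 3.50, the 2 fits with a sample left out in which it passed. Without T10 it was 1.23, without T1 1.32 and without N3, N8 or N9 1.54 to 1.91.

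*ITGA10*, the main collagen receptor chain of chondrocytes, was at 48.0 FPKM in N1 against 2.44, 0.357 and 1.64 FPKM in N3, N8 and N9, and at 33.2, 2.81 and 17.4 FPKM in T1, T3 and T10. N1 held the highest value of all samples, and each tumor lay above N3, N8 and N9. The difference of 1.43 (standard error 1.21, adjusted p = 0.789 by limma) did not pass, and passed only without N1 (2.54). Without T1 it was 0.76 and without N8 0.81, the lowest of the fits with a sample left out. Chondrocyte markers, 8 of 8 found, of which 3 (*SOX9*, *ACAN* and *HAPLN1*) of 6 tested passed as higher, summed to 310, 31.3, 3.22 and 9.79 FPKM in N1, N3, N8 and N9 and to 866, 133 and 419 FPKM in T1, T3 and T10, and osteoblast markers to 10160, 732 and 3198 FPKM in these tumors. In T10 single markers of this list differed widely, with *COL2A1*, the collagen that defines cartilage, at 0.547 FPKM, against 286 and 39.5 FPKM in T1 and T3, and *HAPLN1* and *ACAN*, which encode a link protein and the main proteoglycan of cartilage, at 144 and 189 FPKM. Their part in the collagen-binding chains was not tested. *ITGA1* had 2.32 to 3.64 FPKM in N1, N3 and N8, 10.4 FPKM in N9 and 3.73, 10.9 and 5.01 FPKM in T1, T3 and T10 (log2 fold change 0.43, standard error 0.59, adjusted p = 0.872 by limma). *ITGA2*, a collagen receptor chain of platelets and epithelia, had 2.77, 1.31, 0.861 and 0.891 FPKM in N1, N3, N8 and N9 and 4.62, 1.93 and 1.02 FPKM in T1, T3 and T10 (0.45, standard error 0.56, adjusted p = 0.855 by limma). Both were low, and their groups overlapped. *ITGA11* or *ITGA10* led the class in N1, N8, T1 and T10, and *ITGA1*, found on vessels and smooth muscle among others, in N3, N9 and T3.

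The laminin-binding alpha chains had a median log2 fold change of -0.62, and none passed. *ITGA7* (chromosome 10 from 89177 to 110821, an interval shared with 1 other gene) encodes the laminin receptor chain of muscle fibers. It was at 70.1 and 110 FPKM in N8 and N9 and at 15.6 and 4.89 FPKM in N1 and N3. Among the tumors T1 was at 37.6 FPKM, above N1 and N3, while T3 and T10 were at 3.77 and 1.19 FPKM. Its log2 fold change of -2.00 (standard error 1.20, adjusted p = 0.706 by limma) passed without T1 (-3.20), without N3 (-2.78) and without both samples numbered 1 (-3.47). It was smaller and did not pass without T10 (-1.13), N9 (-1.37), N8 (-1.58) or T3 (-1.69). N8 and N9 were the samples with the highest sum of skeletal muscle markers, of which 10 of 12 tested passed as lower. In T1 that sum was 14.1 FPKM, and *ACTA1*, the actin of skeletal muscle, was at 2.41 FPKM, beside 13913 and 11146 FPKM in N8 and N9. The part of muscle in the *ITGA7* values of N8 and N9 was not tested.

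*ITGA6*, the laminin receptor chain of endothelium, epithelium and platelets, was at 2.66, 7.78, 9.64 and 19.4 FPKM in N1, N3, N8 and N9 and at 4.38, 5.44 and 5.01 FPKM in T1, T3 and T10. The tumors lay between N1 and the other non-tumor samples, and the log2 fold change was -0.62 (standard error 0.60, adjusted p = 0.808 by limma), with -1.06 without N1, -0.24 without N9 and -0.99 without both samples numbered 1. Endothelial markers, 8 of 9 found, of which 4 passed as lower, summed to 84.6, 129, 92.8 and 281 FPKM in N1, N3, N8 and N9 and to 108, 25.8 and 25.3 FPKM in T1, T3 and T10, and their part was not tested. *ITGA3*, whose interval is shared with 6 other genes, had 0.957, 0.856, 0.963 and 2.01 FPKM in N1, N3, N8 and N9 and 1.69, 3.44 and 0.156 FPKM in T1, T3 and T10. T3 was the highest and T10 the lowest of all samples (log2 fold change 0.16, standard error 0.59, adjusted p = 0.961 by limma). The chain that led this class was *ITGA7* in N1, N8, N9 and T1 and *ITGA6* in N3, T3 and T10.

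Of the leukocyte chains, *ITGB2*, *ITGAM*, *ITGAX* and *ITGAL* were highest in N3 and next highest in N8, an order that *ITGAE* did not share. *ITGB2*, the β2 chain of leukocytes (chromosome 31 from 38478900 to 38591909, an interval shared with 3 other genes), was at 66.3 and 57.3 FPKM in N3 and N8. It was at 4.85 and 3.07 FPKM in N1 and N9 and at 8.43, 2.57 and 5.24 FPKM in T1, T3 and T10, so that N1 and N9 were within the tumor range. *ITGAM*, the alpha chain of the complement receptor of granulocytes and macrophages, was at 46.0 and 21.5 FPKM in N3 and N8, at 1.42 and 2.84 in N1 and N9, and at 2.23, 1.38 and 7.05 in T1, T3 and T10. *ITGAX*, a chain of macrophages and dendritic cells, had 39.7 and 14.4 FPKM in N3 and N8, 2.48 and 2.84 in N1 and N9, and 4.92, 2.31 and 3.69 in T1, T3 and T10. The order of the samples was thus nearly that of *ITGB2*, with N3 first and N8 next. *ITGAL*, the alpha chain of lymphocyte adhesion to ICAM1, was at 3.85 and 2.23 FPKM in N3 and N8 and at 0.310 to 1.28 FPKM elsewhere. *ITGAD*, at 2.28 FPKM in N3 and under 1 FPKM elsewhere, fell under the filter.

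None of these chains passed with all 7 samples weighted alike. The log2 fold changes were -1.56 for *ITGB2* (standard error 1.04, adjusted p = 0.733 by limma), -1.33 for *ITGAM* (standard error 1.02, adjusted p = 0.762 by limma), -1.08 for *ITGAX* (standard error 0.85, adjusted p = 0.768 by limma) and -0.57 for *ITGAL* (standard error 0.61, adjusted p = 0.826 by limma). *ITGB2* passed without N9, a non-tumor sample with low values (-2.26), and with the samples weighted by their spread (-2.39). Without N3 the differences were -0.91 for *ITGB2*, -0.58 for *ITGAM*, -0.39 for *ITGAX* and -0.23 for *ITGAL*, and without N8 that of *ITGB2* was -0.98. The granulocyte markers, 9 of 10 found, of which 7 passed as lower, summed to 58940 and 65460 FPKM in N3 and N8, to 701 and 2022 in N1 and N9, and to 67.9, 884 and 1992 in T1, T3 and T10. Macrophage markers, 8 of 9 found, were at 983 and 864 FPKM in N3 and N8, at 268 and 58.5 in N1 and N9, and at 572, 192 and 174 in T1, T3 and T10. Single macrophage markers differed. *C1QA*, *C1QB*, *C1QC* and *CD163* were highest in N3 or N8, while *CD68* and *CSF1R* were highest in T1, *MSR1* in T10 and *MARCO* in T3. T lymphocyte and B lymphocyte sums, 7 of 7 found for each, were highest in N3 (64.6 and 114 FPKM) and next in N8 (17.8 and 69.3 FPKM), with at most 15.5 and 6.68 FPKM elsewhere. The part of these cells in the leukocyte chains was not tested.

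**Figure D4:**
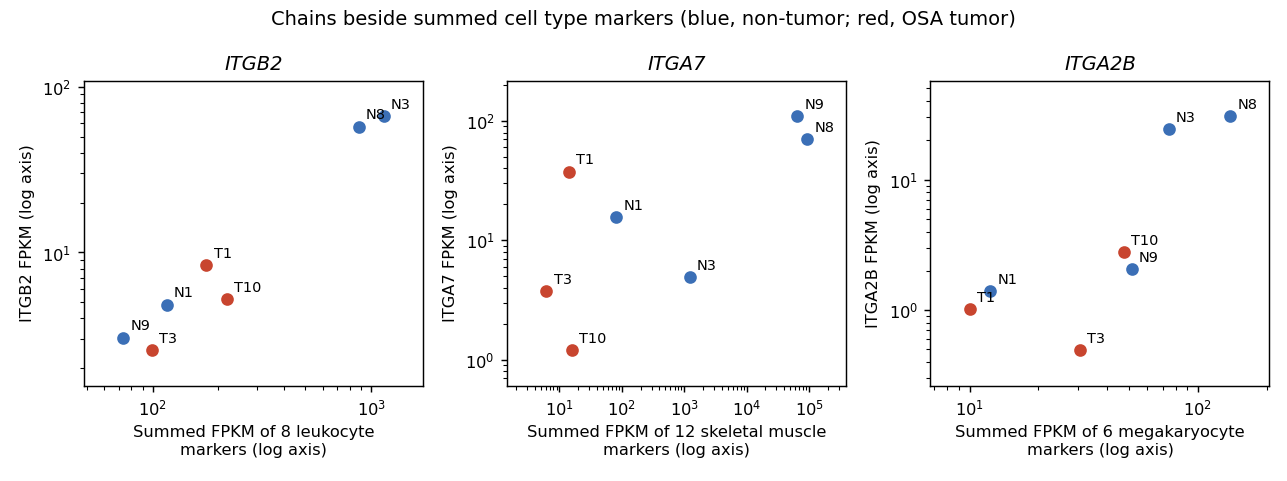
FPKM of *ITGB2*, *ITGA7* and *ITGA2B* (vertical, log axes) against the summed FPKM of markers of leukocytes, skeletal muscle, and megakaryocytes and platelets (horizontal, log axes), 1 point per sample, blue for non-tumor and red for OSA tumor. N3 and N8 are together at the top right for *ITGB2* and *ITGA2B*, and N8 and N9 for *ITGA7*, where T1 reaches 37.6 FPKM with a muscle sum of only 14.1 FPKM.

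*ITGA4*, which pairs with *ITGB1* or *ITGB7* on lymphocytes and other blood cells, was at 62.2 and 25.0 FPKM in N3 and N8 and at 4.69 and 2.75 FPKM in N1 and N9. T3 and T10, at 18.2 and 19.9 FPKM, were above N1 and N9 and below N3 and N8, and T1 was at 3.79 FPKM. The log2 fold change was -0.14 (standard error 1.00, adjusted p = 0.982 by limma), and rescaling to the same sum turned it to 0.05. *ITGB7*, the gut homing beta chain of lymphocytes, had 32.0 and 31.9 FPKM in N3 and N8, 3.76 and 1.17 FPKM in N1 and N9, and 4.21, 2.12 and 3.12 FPKM in T1, T3 and T10. It did not pass (-1.34, standard error 0.96, adjusted p = 0.746 by limma) except without N9 (-2.09), and was -0.78 without N3 or N8. *ITGA4* in T3 and T10 was therefore 8.61 and 6.38 times *ITGB7*, where the ratio was 0.785 to 2.35 in the other 5 samples. *ITGA9*, a receptor chain for tenascin and osteopontin, varied least of these, with 7.05 to 11.4 FPKM over the non-tumor samples and 7.07, 15.4 and 17.4 FPKM in T1, T3 and T10 (log2 fold change 0.44, standard error 0.47, adjusted p = 0.826 by limma). *ITGAE*, the leukocyte chain that binds E-cadherin, was lowest in N8 (0.714 FPKM) and highest in N3 (1.96 FPKM), with N1 (1.86 FPKM) and the tumors (1.25 to 1.70 FPKM) between them.

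N3 and N8 were the 2 highest samples for 7 of the 31 tested chains (*ITGA2B*, *ITGA4*, *ITGAL*, *ITGAM*, *ITGAX*, *ITGB2* and *ITGB7*), or 22.6%, beside 8.65% of all tested genes. N1 and T1 were the 2 highest for 6 chains (*ITGA2*, *ITGA5*, *ITGA10*, *LAMA4*, *LAMA5* and *LAMB2*), or 19.4%, beside 15.3% of all tested genes. N9 and T3 were the 2 highest for 4 chains (*ITGA1*, *ITGA3*, *ITGA8* and *LAMA2*), or 12.9%, beside 5.55% of all tested genes. Each of 3 pairs led 3 chains, or 9.68%. These were T1 and T10 for *ITGA11*, *ITGAV* and *ITGB5* (4.07% of all tested genes), T3 and T10 for *ITGA9*, *ITGB1* and *LAMA1* (9.03%), and N8 and N9 for *ITGA6*, *ITGA7* and *ITGB6* (13.6%). These counts describe the 7 samples and were not tested.

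The remaining beta chains were low. *ITGB6*, the epithelial partner of αv, was at 11.3 FPKM in N9, 2.48 in N8 and 0.103 in N3 and was listed at 0 in N1, T1 and T3, with 0.0159 FPKM in T10. Its log2 fold change of -1.38 (standard error 0.87, adjusted p = 0.721 by limma) did not pass, and was -0.64 without N9. Epithelial markers, 7 of 8 found, summed to 13.4 FPKM in N9, 5.45 in N8 and 41.0 in T3. A single gene made up most of these sums, *TP63* in N9 (12.7 FPKM) and *KRT19* in T3 (33.4 FPKM), and *KRT18* was listed at 0 in all samples. The part of epithelial cells in the *ITGB6* values was not tested. *ITGB8*, another αv partner, was under the filter, with 0.626, 0.529, 0.0499 and 0.0832 FPKM in N1, N3, N8 and N9 and 0.145, 0.329 and 1.08 FPKM in T1, T3 and T10.

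Among laminin alpha chains *LAMA4*, the chain of vessel walls and mesenchymal cells, had the highest level in all 7 samples and held 63.2% to 83.8% of the sum of the 5 alpha chains. It was at 61.2, 22.1, 15.1 and 26.6 FPKM in N1, N3, N8 and N9 and at 98.6, 27.3 and 31.3 FPKM in T1, T3 and T10. N1 and T1 had the highest values and the groups overlapped (log2 fold change 0.67, standard error 0.64, adjusted p = 0.806 by limma). The difference was 1.05 without N1, 0.097 without T1 and 0.48 without both, and it passed in none of these fits. *LAMA1*, the alpha chain of the laminin of the early embryo, was low in bone and above it in all tumors. Its levels (ENSCAFG00000018597, chromosome 7 from 73307183 to 73438713) were 0.153, 0.193, 0.0280 and 0.0537 FPKM in N1, N3, N8 and N9 and 0.610, 6.18 and 0.964 FPKM in T1, T3 and T10. T3 held 79.7% of the tumor sum. All samples but T3 were under 1 FPKM, and these values stand for few fragments, of a number the table does not give.

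On the log2(FPKM + 1) scale, which understates the change of low genes, the *LAMA1* fold change was 1.36 (standard error 0.63, adjusted p = 0.693 by limma) with an unadjusted p of 0.0573 and did not pass, and the exact permutation test gave p = 0.0571. It passed without T1 (1.77), without T10 (1.62) and without both samples numbered 1 (1.79), and was 0.69 without T3. It also passed without the filter, without the trend in limma, with sample weights (1.38) and with a pseudocount of 0.1 or 0.01 in place of 1, and was 4.04 at 0.01.

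*LAMA2*, the alpha chain of the muscle and nerve basement membrane, was at 1.49, 1.29, 2.70 and 9.26 FPKM in N1, N3, N8 and N9 and at 2.23, 6.43 and 4.68 FPKM in T1, T3 and T10. N9 was highest, and the tumors lay within the non-tumor range (log2 fold change 0.42, standard error 0.64, adjusted p = 0.889 by limma). N8 and N9 had the highest muscle marker sums, and *LAMA2* in N8 lay between T1 and T10. *CKM*, listed at 0 in N9, is part of that sum, and the part of muscle in the *LAMA2* values was not tested. *LAMA5*, the broadest alpha chain of adult basement membranes, was at 11.2, 1.17, 2.86 and 2.18 FPKM in N1, N3, N8 and N9 and at 15.5, 0.821 and 0.126 FPKM in T1, T3 and T10. N1 and T1 stood above all others (log2 fold change -0.39, standard error 0.96, adjusted p = 0.938 by limma), and the interval is shared with 17 other genes, so that the values are uncertain. The *LAMA5* difference was 0.11 without N1, -1.57 without T1, 0.37 without T10 and -1.06 without both samples numbered 1, and passed in none of these fits. *LAMA3*, the epithelial chain, was between 0.137 and 3.41 FPKM with overlapping groups.

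The beta chains of laminin differed from tumor to tumor. *LAMB1*, the β1 chain of most early and vascular laminins (chromosome 18 from 12634661 to 12700157), was at 34.6, 29.1, 8.31 and 14.8 FPKM in N1, N3, N8 and N9 and at 38.6, 179 and 19.9 FPKM in T1, T3 and T10. T3 held 75.3% of the tumor sum, and T10 lay within the non-tumor range. *LAMB2*, the β2 chain of nerve-muscle junctions, kidney and vessels (chromosome 20 from 40050300 to 40076742, shared with 1 other gene), was at 76.2, 16.6, 18.8 and 27.5 FPKM in N1, N3, N8 and N9 and at 102, 8.54 and 4.60 FPKM in T1, T3 and T10. T3 and T10 thus lay below every non-tumor sample and T1 above every one.

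The log2 fold change of *LAMB1* was 1.41 (standard error 0.79, adjusted p = 0.699 by limma) and did not pass except without T10 (2.08), while without T3 it was 0.53. That of *LAMB2* was -0.75 (standard error 0.98, adjusted p = 0.863 by limma), and it passed as lower without T1 (-2.02) and without both samples numbered 1 (-1.56), while without T10 it was 0.08. Of the summed beta chains, *LAMB1* held 95.2% in T3 and 79.7% in T10, against 27.4% in T1 and 29.9% to 63.0% in non-tumor samples. *LAMB3* was at 0.57 FPKM on average in non-tumor and 0.47 FPKM in tumor samples, and *LAMB4* at 0.056 and 0.028 FPKM, both under the filter.

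*LAMC1*, the gamma chain of most laminins (chromosome 7 from 16406353 to 16529051), was at 25.9, 22.1, 20.3 and 47.1 FPKM in N1, N3, N8 and N9 and at 38.2, 34.7 and 103 FPKM in T1, T3 and T10. T1 and T3 were above all non-tumor samples but N9, and T10 above all of them (log2 fold change 0.90, standard error 0.55, adjusted p = 0.712 by limma). Without T10 this was 0.41. *LAMC3*, a gamma chain of limited distribution, was at 13.2, 7.60, 2.22 and 1.47 FPKM in N1, N3, N8 and N9 and at 8.50, 40.8 and 7.27 FPKM in T1, T3 and T10. Its log2 fold change of 1.41 (standard error 0.80, adjusted p = 0.701 by limma) passed only without N1 (1.86), and was 0.67 without T3, 1.02 without N9 and 2.19 without both samples numbered 1. In T3 *LAMC3* held 54.0% of the sum of both chains, where *LAMC1* led in the other 6 samples with 66.3% to 97.0%.

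**Figure D5:**
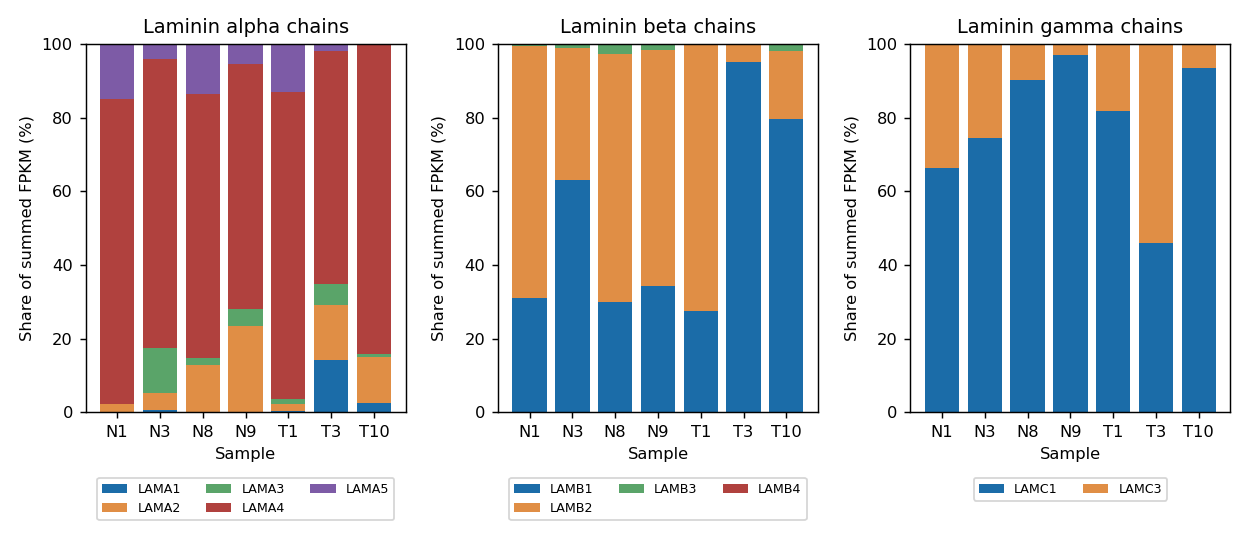
Share of the summed FPKM of the laminin alpha chains, the beta chains, and the gamma chains *LAMC1* and *LAMC3*, held by each chain (stacked bars, in percent) in each sample. *LAMA4* is the largest part of the alpha chains in every sample, *LAMB1* exceeds *LAMB2* in N3, T3 and T10, and *LAMC3* exceeds *LAMC1* in T3 alone.

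T3 was thus the sample with the highest *LAMA1*, *LAMB1* and *LAMC3*, at 6.18, 179 and 40.8 FPKM, while its *LAMB2* of 8.54 FPKM was lower than in every sample but T10. In T10 the high laminin chain was *LAMC1*, at 103 FPKM, and in T1 *LAMA4* and *LAMB2*, at 98.6 and 102 FPKM. The leading beta and gamma chains were *LAMB2* and *LAMC1* in T1, *LAMB1* and *LAMC3* in T3, and *LAMB1* and *LAMC1* in T10.

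Alpha and beta chains were then paired as the 24 known heterodimers, of which 21 had both chains in the table. In 19 both chains were tested, in 13 of these the log2 fold changes had the same sign, and in 1, *ITGAV* with *ITGB1*, both chains passed as higher. Since *ITGB1* enters 12 pairs and *ITGAV* several, the pairs are not independent, and the count is a description. The 12 alpha partners of *ITGB1* summed to 255, 154, 165 and 239 FPKM in N1, N3, N8 and N9 and to 398, 169 and 337 FPKM in T1, T3 and T10. Per FPKM of *ITGB1* this sum was 2.67, 1.37, 1.58 and 2.2 in the non-tumor samples and 2.75, 0.716 and 0.439 in the tumors. In T3 and T10 the summed partners were therefore below *ITGB1* itself, which was the case in none of the other 5 samples.

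The leading alpha partner of *ITGB1* changed with the sample. *ITGAV* led in all 3 tumors and in N1, *ITGA4* in N3 and *ITGA7* in N8 and N9. Behind *ITGAV* came *ITGA5* in T1 and T3 and *ITGA11* in T10. *ITGAV* was below *ITGB5* in 6 samples, at 0.385 to 0.954 times its level, and above it in T3 at 1.65 times. It was above *ITGB8* in all 7 samples, by at least 63.1 times. For *ITGB2*, the 4 alpha partners summed to 0.902, 1.39, 0.677 and 2.03 times the beta chain in N1, N3, N8 and N9 and to 0.904, 1.58 and 2.29 times in T1, T3 and T10, so that these ratios overlapped between groups although the levels of N3 and N8 stood apart. The pairs of *ITGA2B* and *ITGAV* with *ITGB3* and of *ITGA6* with *ITGB4* were not assessed.

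Ratios within a sample, which a scaling factor moves little, were compared between groups by a two-sided exact permutation test. *ITGB1* was 19.7, 1.7, 1.82 and 35.4 times *ITGB2* in N1, N3, N8 and N9 and 17.2, 91.8 and 146 times in T1, T3 and T10. On the log2(FPKM + 1) scale the group means were 2.60 ± 2.10 (SD) and 5.65 ± 1.54 (SD), and the difference of 3.05 had p = 0.171 (exact permutation test). It was 2.40 to 3.90 with a sample left out and 4.38 without both samples numbered 1. The low ratios were those of N3 and N8, the samples with the highest leukocyte sums, and the part of leukocytes in the ratio was not tested. The ratio of *LAMB1* to *LAMB2* was 0.455, 1.75, 0.443 and 0.539 in N1, N3, N8 and N9 and 0.38, 20.9 and 4.33 in T1, T3 and T10. T1 had the lowest value of all samples and T3 the highest, and the log2 difference of 2.16 had p = 0.286 (exact permutation test). That difference was 0.83 without T3, 3.64 without T1 and 3.46 without both samples numbered 1. *LAMA4* was 2.87 to 41.1 times *LAMA2* in non-tumor samples and 4.24 to 44.3 times in tumors, with a log2 difference of 0.25 and p = 0.857 (exact permutation test), and the sign of this difference turned with the samples included. With 4 against 3 samples the exact permutation test cannot give a p under 0.0571. It could therefore not place any of the 3 ratios under 0.05, and no conclusion on a difference is drawn from it.

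Other genes of the adhesion pathway were taken from 3 lists. Of 82 symbols, 77 were found and 66 tested, and 1 passed as higher (1.52%) and 2 as lower (3.03%), both shares below the 3.28% and 3.58% of all tested genes. Their median log2 fold change was 0.22. The integrin ligands other than laminins and collagens (23 of 24 found, 19 tested) held the gene that was higher, *FN1*, which encodes fibronectin, the ligand of the α5β1 and αv receptors. *FN1* was at 116, 43.4, 15.0 and 26.3 FPKM in N1, N3, N8 and N9 and at 336, 178 and 230 FPKM in T1, T3 and T10. All 3 tumors were above all non-tumor samples, and the log2 fold change was 2.63 (standard error 0.69, adjusted p = 0.693 by limma), with an unadjusted p of 0.00388 and an exact permutation p of 0.0571. It passed in all 7 fits with a sample left out, at 2.21 to 3.17, and without both samples numbered 1 (2.92). The groups did not overlap for *ICAM1*, the ligand of β2 integrins, either, at 5.72 to 12.6 FPKM in non-tumor and 14.1 to 15.5 FPKM in tumor samples, but its log2 fold change of 0.74 (adjusted p = 0.706 by limma) was under the threshold. Of the 66 tested pathway genes, 2 lay apart as higher and 1 as lower, beside 3.04% and 2.81% of all tested genes.

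The activators and cytoplasmic linkers (30 of 34 found, 29 tested) had a median log2 fold change of -0.05, and 1 passed as lower. This was *PXN*, which encodes paxillin, an adaptor of focal adhesions, at 19.0, 28.5, 32.2 and 36.8 FPKM in N1, N3, N8 and N9 and at 17.2, 16.8 and 4.59 FPKM in T1, T3 and T10. All tumors were below all non-tumor samples, with T1 and T3 just under N1 (log2 fold change -1.26, standard error 0.55, adjusted p = 0.693 by limma). Its unadjusted p was 0.0458, and the exact permutation test gave p = 0.0571. It passed in 3 of the 7 fits with a sample left out, those without N1 (-1.45), T1 (-1.55) and T3 (-1.54), and not without N3 (-1.26), N8 (-1.20), N9 (-1.14) or T10 (-0.70). Nor did it pass with FPKM rescaled to a common sum, with quantile normalization, without the trend in limma or with the sample number as a random or fixed block.

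The partners of laminin in the basement membrane and other laminin receptors (24 of 24 found, 18 tested) had a median log2 fold change of 0.47, and 1 passed as lower. *SGCA*, the alpha-sarcoglycan of striated muscle, was at 0.932, 1.30, 24.7 and 45.4 FPKM in N1, N3, N8 and N9 and at 0.934, 0.134 and 0.176 FPKM in T1, T3 and T10. N8 and N9, the samples with high muscle markers, were apart from all others, and N1 and T1 were alike (log2 fold change -2.64, standard error 1.12, adjusted p = 0.693 by limma). The unadjusted p was 0.0412 and the exact permutation p = 0.114. It passed in 2 of the 7 fits with a sample left out, without N1 (-3.35) and without N3 (-3.27), and not without N8 (-2.11), N9 (-1.82), T1 (-2.89), T3 (-2.50) or T10 (-2.53). It also did not pass without the filter. The part of muscle in the *SGCA* difference was not tested.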

How the data were processed

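RNA of 4 non-tumor and 3 OSA tumor samples was sequenced on an Illumina HiSeq platform after stranded library preparation. Reads were trimmed by the authors (Trim Galore) and mapped with TopHat to the CanFam3.1 assembly, and the authors computed the deposited FPKM values per gene and sample with Cufflinks/Cuffdiff; versions and scaling between libraries are not given in the sources used here. The authors' table of group comparisons (fold changes and p-values) was used only for gene intervals, with 1 added to each start; some intervals cover several genes, whose reads may not be separable. All 7 FPKM columns were used, with 0 left unused.

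Genes whose mean over the samples reached 1 FPKM were tested on log2(FPKM + 1) with limma 3.58.1 in R 4.3.3 (moderated test with mean-variance trend, no pairing), a call needing a log2 fold change of 1 or more in size with an unadjusted p below 0.05, with Benjamini-Hochberg adjustment over 13507 genes. Exact permutation tests of the difference of the group means were two-sided, over 35 arrangements of the labels. The fit was tested on simulated data. Figures used matplotlib 3.10.9 in Python 3.11.15. Depth could be read only for T1 relative to N1, so no counting intervals were computed.

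The chains, the pathway lists and the marker lists were chosen with earlier results of these data known. By rule, values and fits are given for chains past the threshold or with groups that do not overlap, for the 2 chains of highest mean in each role class and for their partner chains, and, of each pathway list, for up to 3 genes with the smallest p in each direction past the threshold; *ICAM1* and single marker genes were named after their values were seen. Alternatives covered pseudocount, filter, scaling, trend, sample weights, listed zeros, a block on the sample number and each sample left out. Sequences were not used here. The values of 1 chain are not reported here.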

Additional observations from a re-analysis of the deposited data

Results flagged for a closer look

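In each group of 4 non-tumor samples, the distance of the highest or lowest value from its nearest neighbor was set against the whole range on the log2(FPKM + 1) scale (Dixon's ratio, with its 95% critical value for 4 samples). Over 34 chains and ratios examined, 3 exceeded it, and chance alone flags about 1 in 20 groups. For *ITGB5* the ratio was 0.924, with N1 at 218 FPKM and the other non-tumor samples at 49.8 to 55.8 FPKM. For *ITGA3* it was 0.885, with N9 at 2.01 FPKM and the others at 0.856 to 0.963 FPKM. For the log2 ratio of *LAMB1* to *LAMB2* it was 0.86, with N3 at 0.77 and the others at -1.11 to -0.85. The causes were not tested. Groups of 3 tumors were too small to be examined in this way.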

How the results depend on the processing

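Of 618 values of the 31 tested chains under the alternatives, 550 kept their direction and their side of the threshold, 14 lost a call, 27 gained one and 27 changed sign; 20 chains kept their sign throughout. The number of chains higher in tumor was 0 with FPKM rescaled to the same sum, 0 with the sample number as a fixed replicate block over N1, N3, T1 and T3 (where *ITGB1* was at 0.82 and *ITGAV* at 0.83) and 0 to 4 with a sample left out. The number lower was 2 with sample weights, 1 with the sample number as a random replicate block (*ITGA2B* at -2.02, with *LAMA1* passing as higher at 1.41), 2 without both samples numbered 1 and 0 to 3 with a sample left out. Pathway genes higher were 3 with sample weights, 2 with the random block, 2 with the fixed block, 2 without both samples numbered 1 and 1 to 6 with a sample left out; those lower were 1 without the filter (*PXN*), 1 with quantile normalization, 1 without the trend (*SGCA* in both), 7 with sample weights, 0 with either block (*PXN* at -0.995 and *SGCA* at -1.90 with the random block, -0.43 and -0.51 with the fixed block), 6 without both samples numbered 1 and 0 to 6 with a sample left out. Of all tested genes, the shares higher and lower were 3.95% and 3.92% with the random block, 1.05% and 0.733% with the fixed block, 1.58% and 0.928% without the filter, 3.7% and 3.06% with quantile normalization and 3.37% and 3.49% without the trend. The log2 difference in the *LAMA4* to *LAMA2* ratio turned to -0.55 with the fixed block and -0.076 without both samples numbered 1, and ran from -0.66 to 0.85 with a sample left out. Sign changes of single chains under the fixed block were *ITGA7* to 0.46, *ITGA8* to 0.60, *ITGA10* to -0.18, *LAMA5* to 0.092, *ITGA6* to 0.055 and *ITGAE* to -0.27. Rescaling turned *ITGA4* to 0.052, pseudocounts of 0.1 and 0.01 turned *ITGA3* to -0.062 and -0.19, and leaving out both samples numbered 1 turned *ITGA4* to 0.13 and *LAMA3* to -0.30. With a sample left out, the ranges that crossed 0 were -1.34 to 0.11 for *ITGA8*, -0.10 to 1.00 for *ITGA5*, -2.02 to 0.080 for *LAMB2*, -1.57 to 0.37 for *LAMA5*, -0.76 to 0.60 for *ITGA4*, -0.29 to 0.68 for *ITGA3* and -0.20 to 0.50 for *LAMA3*. The causes of these changes were not tested.

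The replicate numbers occur in both groups only for 1 and 3. The deviations from the group means correlated at 0.422 for N1 with T1 and 0.211 for N3 with T3, and at -0.273 to 0.135 for samples with different numbers. The labels call the tissue matched but do not pair samples. With 2 shared numbers these correlations are a hint from the data and not the design. The values of the block fits are therefore given only here, and the fixed block leaves out N8, N9 and T10. Levels under about 1 FPKM stand for few fragments, and 4 against 3 samples cannot reach an exact p under 0.0571.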
